A study of Mus musculus with 3 samples.

Results

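Tra2β contacts on the exons of long non-coding RNAs (lncRNAs) were examined in the testes of adult wild type mice. lncRNAs are long transcripts with no annotated protein product, and the testis is known for a large and varied set of them, many restricted to germ cells. Most are made by RNA polymerase II and are capped and spliced as messenger RNAs are, so their exons pass the same splicing machinery. Tra2β is an SR-like splicing regulator whose RNA recognition motif is known to prefer GAA-rich RNA, which can occur in non-coding as well as coding exons.

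The members were the exons of all genes of type lncRNA in the GENCODE vM39 annotation of GRCm39, except Malat1 and Neat1, without any base that is also exonic in a protein-coding gene on the same strand. There were 32882 such genes of 78289 annotated genes, and 32832 of them kept at least 1 base while 50 kept none. Their exons formed 128086 stretches that covered 51.3 Mb, or 0.940% of the bases of both strands of the genome. A gene was called spliced when any of its transcripts had more than 1 exon, which held for 30034 genes. The other 2848 were single-exon genes.

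Crosslinks came from iCLIP, in which ultraviolet light joins proteins to RNA in place, an antibody recovers the protein of interest with its fragments, and the end of each cDNA marks the joined nucleotide. The 3 libraries form 1 group of biological replicates from minced wild type testes, a mixture of cell types, with a polyclonal antibody to endogenous Tra2β. A crosslink here is 1 unique cDNA at 1 nucleotide, and the libraries held 348033, 619571 and 488719 of them in replicates 1, 2 and 3. No input or RNA-seq library was used here, so a crosslink density combines how abundant an RNA was with how often Tra2β met each copy, and these cannot be told apart. Replicate 2 stood apart from the others in coding sequence, where exons of protein-coding genes held 16.5% of its crosslinks against 31.8% in replicate 1 and 43.3% in replicate 3.

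The nucleotides that gave the ranking its top entries are shown first, because some of them lie in other annotated RNAs. For each leading gene the 41-nt exon window with the most crosslinks was taken from GRCm39 and is written 5′ to 3′ in the sense of the RNA, with every GAA in capitals. Windows of Gm72623, the gene with the most crosslinks, and of the 3 most crosslinked genes with more than 50% of their crosslinks in stretches that match an annotated small nuclear RNA (snRNA) were as follows.
Gm72623 (chr5:146197851-146197891, + strand): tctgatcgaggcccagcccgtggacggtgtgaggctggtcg
Gm51630 (chr1:72265480-72265520, + strand): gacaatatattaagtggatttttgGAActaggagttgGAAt
Gm70675 (chr4:131997421-131997461, - strand): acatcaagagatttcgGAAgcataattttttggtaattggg
B930036N10Rik (chr1:171330638-171330678, - strand): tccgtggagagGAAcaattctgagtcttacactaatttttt

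These stretches held 404 of the 620 crosslinks of Gm72623, 138 of the 180 of Gm51630, 102 of the 216 of Gm70675 and 138 of the 154 of B930036N10Rik. The window of Gm70675 lies in Rnu11, the annotated gene of U11, a small nuclear RNA of the minor spliceosome. Those of Gm51630 and B930036N10Rik lie in the annotated snRNA genes Gm25360 and Gm24871. Their letters resemble U2 and U5, spliceosomal RNAs known to engage introns and exons during splicing. Gm72623 is a single exon inside an intron of Cdk8 whose letters resemble 28S ribosomal RNA. These 3 resemblances are stated from general knowledge and were not measured.

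Windows from other leading genes ranged from 34.1% to 95.1% purine. The first 6 below are shown for the purine runs and GAA triplets that Tra2β is known to bind, and the last 3 because they have few or none.
4930570D08Rik (chrX:132799286-132799326, - strand): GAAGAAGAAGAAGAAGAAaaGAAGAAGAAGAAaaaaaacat
ENSMUSG00000137642 (chr5:77149556-77149596, + strand): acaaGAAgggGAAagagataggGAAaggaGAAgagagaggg
Gm64922 (chr8:33975061-33975101, + strand): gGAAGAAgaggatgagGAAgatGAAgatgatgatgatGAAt
4933402J10Rik (chr5:60143201-60143241, - strand): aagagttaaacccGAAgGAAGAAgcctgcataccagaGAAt
4930444F02Rik (chr10:18675731-18675771, - strand): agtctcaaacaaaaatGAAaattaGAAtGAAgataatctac
Gata3os (chr2:9887616-9887656, + strand): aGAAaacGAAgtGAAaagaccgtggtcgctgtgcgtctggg
Gm14244 (chr2:127533885-127533925, + strand): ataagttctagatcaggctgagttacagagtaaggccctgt
Gm45027 (chr11:77091620-77091660, - strand): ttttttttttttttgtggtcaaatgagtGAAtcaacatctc
1700006J14Rik (chr10:120205875-120205915, + strand): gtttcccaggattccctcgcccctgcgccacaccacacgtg

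The window of 4930570D08Rik, a run of GAA repeats with 10 copies of the triplet, held 31 crosslinks in replicate 1, 0 in replicate 2 and 47 in replicate 3. In ENSMUSG00000137642 the window is 95.1% purine and held 16, 4 and 11 crosslinks in replicates 1, 2 and 3. The window of Gm64922 held 14, 0 and 17. In these 3 genes replicate 2 was the lowest. By contrast the window of 4930444F02Rik held 1, 20 and 1 crosslinks and that of Gata3os held 3, 13 and 2, so that replicate 2 was the highest. The window of Gm14244, with no GAA, held 4, 7 and 9, that of Gm45027, 36.6% purine with 1 GAA, held 4, 2 and 12, and that of 1700006J14Rik, 34.1% purine with no GAA, held 1, 7 and 2. Among the 20 leading genes after Gm72623 with no more than 50% of their crosslinks in a small structured RNA and not on chromosome 18, 18 windows held at least 1 GAA, 16 were more than 50% purine, and 13 had a crosslink in each library. The windows were picked for their crosslinks, so these are descriptions of the densest places. Windows picked without regard to crosslinks were not counted beside them. Exonic bases of crosslinked lncRNA genes, weighted by crosslinks, were 27.9% A and 23.8% G as a mean over libraries. Each of the 20 windows occurred once in the genome as an exact match of either strand.

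Exons of lncRNAs held 12738 crosslinks in replicate 1, 21604 in replicate 2 and 17035 in replicate 3. These were 3.66% of replicate 1 (95% Clopper-Pearson interval 3.60 to 3.72), 3.49% of replicate 2 (3.44 to 3.53) and 3.49% of replicate 3 (3.43 to 3.54), a mean of 3.54% ± 0.100 (SD, n = 3). Intervals cover counting error only. The share was thus similar in libraries that differed widely in coding exons.

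Those crosslinks were thinly spread. At least 1 exon crosslink was found in 9447 of the 32882 genes, or 28.7%, against 65.8% of protein-coding genes. A crosslink in every library was found in 2336 lncRNA genes, and 3919 genes had a single crosslink in all. In 23435 genes there was none, which allows up to 8.62, 4.84 and 6.14 CPM (crosslinks scaled to a library total of 1e6) in replicates 1, 2 and 3. The 486 genes with 20 or more exon crosslinks together held 42.3% of the total, the 20 genes with the most held 8.58%, and 50% was reached only with 727 genes.

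**Figure D1:**
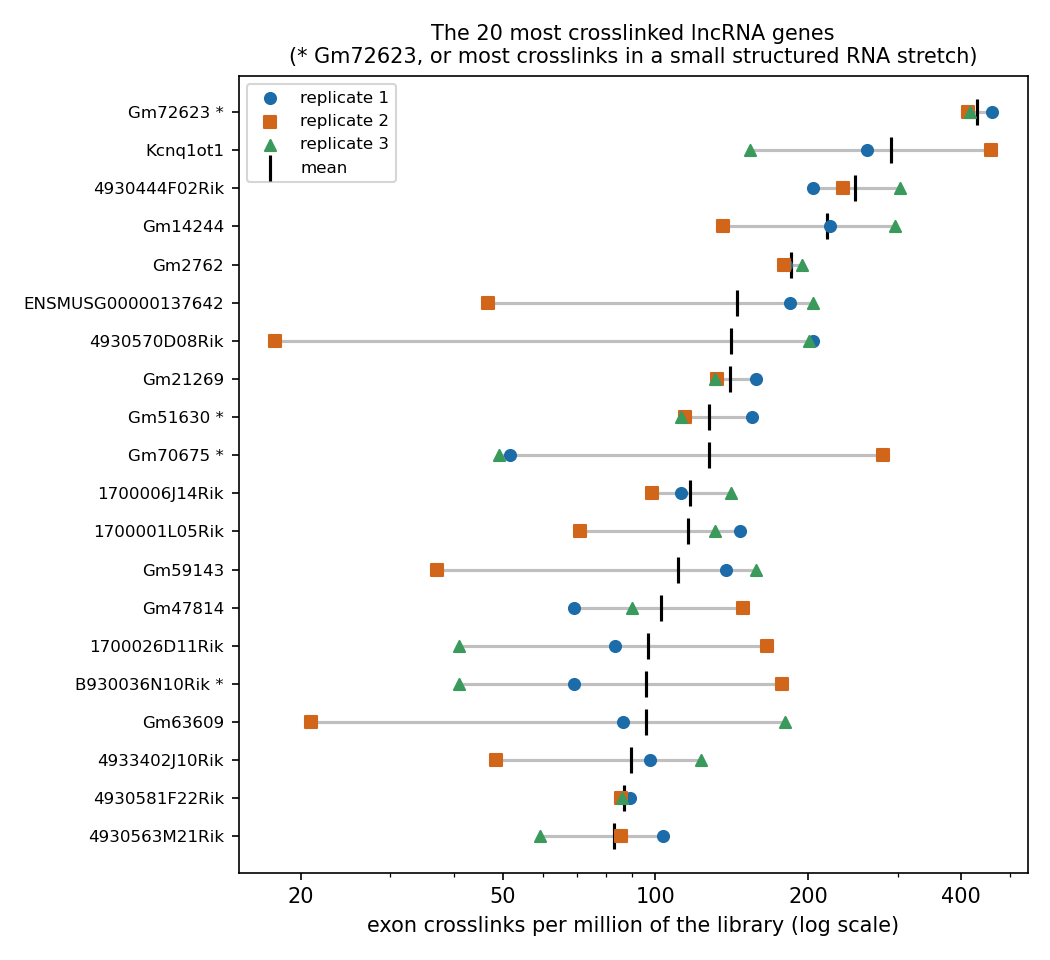
Exon crosslinks in CPM (log axis) for the 20 lncRNA genes with the highest mean, among those with at least 3 crosslinks in each library. Points are the 3 replicates, grey lines their range and black ticks the mean, and asterisks mark Gm72623 and the 3 genes with more than 50% of their crosslinks in a small structured RNA; 4930570D08Rik and Gm63609 have replicate 2 far below the others.

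The gene with the most exon crosslinks was Gm72623, whose 259 nt held 160, 256 and 204 crosslinks in replicates 1, 2 and 3, a mean of 430.1 ± 25.7 CPM (SD, n = 3). Its 3 libraries lay close together, and no other gene of the 20 matched its density of 2394 crosslinks per kb over the 3 libraries. Gm51630 held 54, 71 and 55, and 171 of these 180 lay in its snRNA stretch. Both genes had similar levels in all libraries after scaling to depth. Gm70675 held 18, 174 and 24, and B930036N10Rik held 24, 110 and 20, so each was clearly highest in replicate 2.

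Stretches of this kind were searched for in all 486 genes with 20 or more exon crosslinks, by comparison with the annotated snRNAs, snoRNAs, scaRNAs, ribosomal, mitochondrial, 7SK, 7SL and Y RNAs and ribozymes, and with Gm72623 itself, which was added to the set and so counts in full. They held 1482 crosslinks in all, 279 in replicate 1, 838 in replicate 2 and 365 in replicate 3. In 14 genes, Gm72623 among them, they held more than 50% of the crosslinks. Beyond those above, these include Gm72065, with 110 of 110 in annotated snRNA genes (letters like U4 by general knowledge, not measured), Gm67032, with 28 of 28 in the Y RNA gene Rny3, Rmrp, the RNA of the RNase MRP ribozyme, with 28 of 29, Gm67393, with 23 of 23 in the U3 gene Snord3a, and 2900060B14Rik, with 19 of 20 in Rnu4atac, a minor spliceosome RNA. Gm75556, with 64 of 90, resembles Gm72623 over 140 nt at 90.7% identity. How reads with several matches were treated is not given in the sources used here, and its part in these counts was not tested.

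Without such stretches and Gm72623, Kcnq1ot1 led. This RNA is transcribed antisense within the gene Kcnq1 and is known to silence imprinted neighbours on the paternal chromosome. It held 91, 284 and 75 crosslinks in replicates 1, 2 and 3, or 291.1 ± 154.6 CPM (SD, n = 3). Replicate 2 was the highest and replicate 3 the lowest. Over its 93852 exonic nt this was a density of only 4.79 crosslinks per kb, summed over the libraries, and its most crosslinked 41-nt window held 5 of 450, all in replicate 2. By density it ranked 344 of 438 genes.

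The testis transcript 4930444F02Rik followed, with 71, 145 and 148 crosslinks over 9285 nt, or 247.0 ± 50.7 CPM. Next came Gm14244, with 77, 84 and 145, and Gm2762, with 63, 111 and 95. Among the 20, the libraries lay closest together on Gm2762, at 184.9 ± 8.31 CPM, and on 4930581F22Rik, at 86.9 ± 1.93 CPM with 31, 53 and 42 crosslinks.

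Other leading genes had replicate 2 far below the rest. The X-linked gene 4930570D08Rik held 71, 11 and 98 crosslinks over 610 nt, ENSMUSG00000137642 held 64, 29 and 100, Gm59143 held 48, 23 and 77, and Gm63609 held 30, 13 and 88. ENSMUSG00000137642 begins 1516 nt downstream of Srp72 on the same strand. For Gm63609, 29 of 131 crosslinks also lie in exons of the pseudogene 1700031M16Rik. In Gm64922, rank 23, all 97 lie in Hmgb1-rs17, a pseudogene of Hmgb1, whose messenger RNA encodes a protein with an acidic tail. Reads of a pseudogene and its parent may be hard to separate, and this was not tested.

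The others of the 20 were Gm21269 (55, 82 and 64), 1700006J14Rik (39, 61 and 69), which runs antisense to Hmga2, 1700001L05Rik (51, 44 and 64), Gm47814 (24, 92 and 44), 1700026D11Rik (29, 103 and 20), 4933402J10Rik (34, 30 and 60) and 4930563M21Rik (36, 53 and 29). Gm47814 starts 1540 nt downstream of Polr3a on the same strand, and 133 of its 160 crosslinks also lie in exons of Gm41109, a gene of the annotation class TEC. Most of these genes bear only clone names, and no role is stated for them here. Of the 20, 4 were single-exon genes, and 3 of those 4 were Gm72623, Gm70675 and B930036N10Rik. Replicate 2 was the lowest library for 11 of the 20 and the highest for 5, after scaling to depth.

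By density, among the 438 genes with at least 20 exon crosslinks and at least 3 in each library, Gm72623 was again first, followed by Gm67032 at 297.9 crosslinks per kb. 4930570D08Rik reached 295.1 per kb, Gm70675 218.4, Gm45027 106.7, Gm72065 103.1 and Gm63511 102.3. Gm67812 had 85.5 per kb, ENSMUSG00000137642 had 85.4 and Gm67252 had 84.3. Most of these 10 densest genes were short, and 8 of the 10 had a single exon. Crosslinks of Gm67252 were 4, 29 and 3, and 16 of the 36 lay in 1 window that is 92.7% purine. Gm45027, antisense to Ssh2, held 29, 29 and 48.

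Exon against intron density compares contacts on the bases kept in the spliced product with those on the bases removed. An exon crosslink can come from the primary transcript or from the spliced product, and these cannot be told apart here. Intronic bases were those between the exons of a gene that belong to no annotated exon on that strand. Over all member bases, exons held 0.248, 0.421 and 0.332 crosslinks per kb in replicates 1, 2 and 3, and lncRNA introns held 0.0906, 0.196 and 0.0986. Exon density was therefore 2.74, 2.15 and 3.37 times that of introns, a mean log2 ratio of 1.44 ± 0.32 (SD, n = 3), above 0 in 3 of 3 libraries. Replicate 2 gave the smallest ratio. In protein-coding genes the same ratio was 7.22, 3.67 and 11.9. lncRNA exons had 0.279, 0.513 and 0.195 times the density of coding gene exons, and lncRNA introns had 0.735, 0.877 and 0.692 times that of coding gene introns. All these ratios lay on the same side of 1 in each library, and with 3 libraries the smallest two-sided p of an exact sign-flip test is 0.25.

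**Figure D2:**
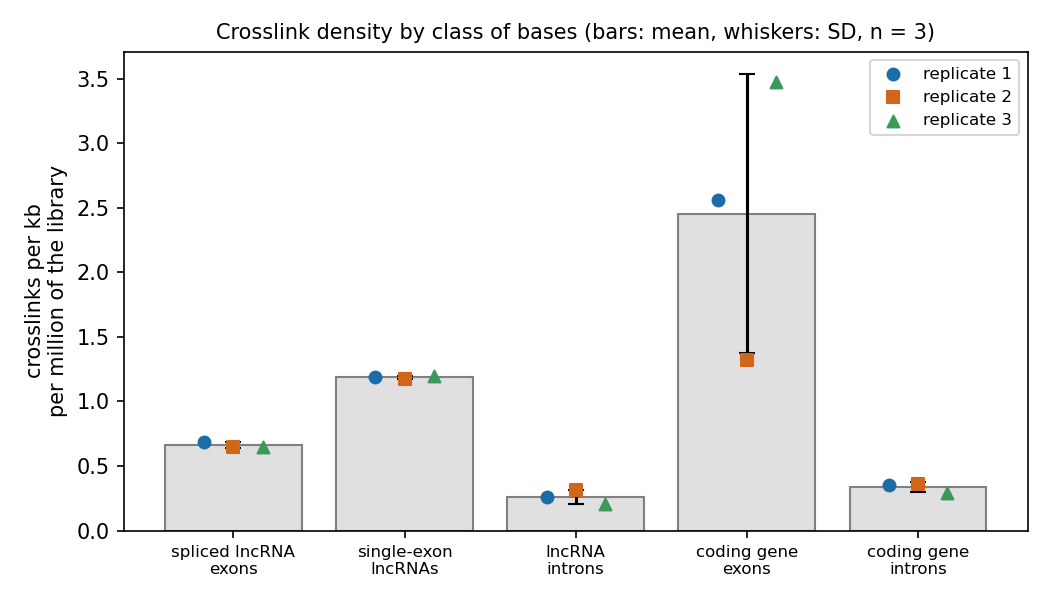
Crosslink density in CPM per kb for 5 classes of bases. Bars are means, whiskers SDs and points the 3 replicates; spliced lncRNA exons are at 0.662, single-exon lncRNAs at 1.19, lncRNA introns at 0.259, coding gene exons at 2.45 with wide spread between libraries, and coding gene introns at 0.335.

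Per gene, exon and intron crosslinks were compared within each library in proportion to the length of each, by exact binomial tests (two-sided) with Benjamini-Hochberg adjustment over all 9729 genes that had at least 20 crosslinks in exons and introns together. To be called, a gene had to pass an adjusted p of 0.05 in every library, each time in 1 direction. Of 2545 lncRNA genes tested, 138 (5.42%) were called with higher exon density, where 23.4% of all genes tested were. Among the 7184 protein-coding genes tested the share was 29.8%. Higher intron density was called for 2 lncRNA genes (0.0786%), where 0.0308% of all genes tested were. Where exons are a small share of the bases few exon crosslinks are predicted, so only genes with many intron crosslinks could be called this way. The median lncRNA gene tested had 41 crosslinks in exons and introns over the 3 libraries. The numbers called in each direction can therefore not be weighed against each other.

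The median of the mean log2 ratio was 1.24 over lncRNA genes and 2.06 over protein-coding genes. For genes with 20 to 29 crosslinks it was 1.45 and 1.75, and with 100 or more 1.03 and 2.41, in the same order. Shares were also set side by side at matched numbers of crosslinks. Exon lengths, on which the power of the test also depends, were not matched. Their median was 2514 nt over lncRNA genes tested and 7695 nt over protein-coding genes. For genes with 20 to 29, 1.52% of lncRNA and 2.82% of protein-coding genes were called. With 50 to 99 crosslinks these shares were 7.10% and 28.5%, and with 100 or more they were 13.3% and 59.6%. The ratio was above 0 in all libraries for 1592 of the 2545 lncRNA genes and below 0 in all for 74. The 0.5 crosslinks added to each count raise the ratio where exons are much shorter than introns and counts are low. These signs therefore lean towards exons. Requiring only the other 2 libraries gave 216 calls without replicate 1 and 245 without replicate 2, and with canonical transcripts alone 64 genes were called.

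**Figure D3:**
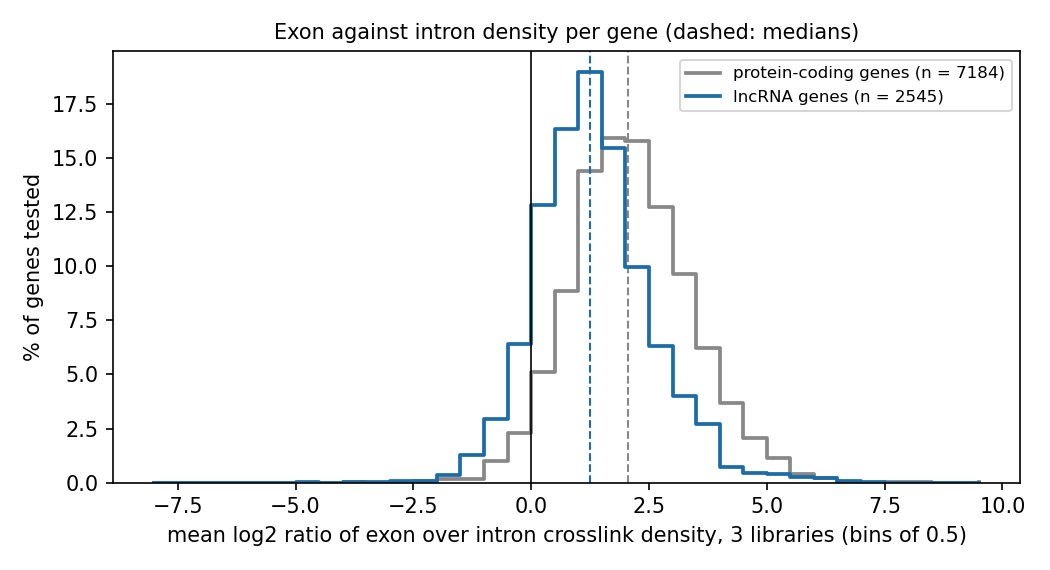
Distribution of the mean log2 ratio of exon over intron crosslink density per gene, as a percentage of genes tested in bins of 0.5, for 2545 lncRNA and 7184 protein-coding genes. Dashed lines are the medians, 1.24 and 2.06, and the solid line marks equal density. The ratio includes 0.5 crosslinks added to each count, which raises it where exons are much shorter than introns and counts are low.

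The highest ratios among called genes belonged to transcripts with almost no intron crosslinks. Gm45027 had 29, 29 and 48 exon crosslinks against 4, 4 and 3 in its introns, a log2 ratio of 7.08 ± 0.62 (SD, n = 3; largest adjusted p = 6.6e-30 by exact binomial test). 4930570D08Rik, with 1, 0 and 2 intron crosslinks, had 6.92 ± 0.55 (largest adjusted p = 8.0e-07, exact binomial test). Gm75556, at 6.80 ± 1.86, is the gene resembling Gm72623 and rests mostly on replicate 2, with 4, 77 and 9 exon crosslinks. 1700024J04Rik had 7, 18 and 11 exon crosslinks and a log2 ratio of 6.41 ± 1.11. Tex24 had 10, 29 and 13 and a log2 ratio of 6.34 ± 0.81. Genes with similar ratios thus differed widely in how many exon crosslinks they held.

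Among the leading genes, Kcnq1ot1 was called at a log2 ratio of 5.54 ± 0.18 with 0, 1 and 0 intron crosslinks, though its main transcript is known to be unspliced. Also called were Gm59143 at 5.44 ± 0.62, 4930563M21Rik, with up to 25 exons, at 3.27 ± 0.38, 4933402J10Rik at 3.25 ± 0.98, Gm63609 at 3.22 ± 1.69, 1700006J14Rik at 2.52 ± 0.49, Gm47814 at 1.87 ± 0.61 and 1700001L05Rik at 1.47 ± 0.23. Others had ratios closer to 0 and were not called. 4930444F02Rik had 155, 293 and 250 intron crosslinks and a log2 ratio of 0.54 ± 0.19, above 0 in each library, Gm2762 had 0.17 ± 0.27 and 1700026D11Rik had -0.13 ± 0.32. Gm14244 was not called either, because its libraries disagreed: it had 77, 84 and 145 exon but 40, 274 and 87 intron crosslinks, so introns led in replicate 2 alone.

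The pair called with higher intron density had almost no exon contact. Gm42306 held 0 exon crosslinks in each library and 35, 91 and 95 in its introns (largest adjusted p = 0.0132, exact binomial test). Gm41102 held 0, 0 and 1 in exons and 118, 144 and 217 in introns (largest adjusted p = 0.00987, exact binomial test). Intron counts left out every annotated exon of the strand, such as Gm63511, among the 10 densest genes, which sits within the span of Gm41102.

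Spliced and single-exon genes differed in density. Exons of spliced lncRNAs held 0.239, 0.403 and 0.317 crosslinks per kb in replicates 1, 2 and 3, and those of single-exon lncRNAs held 0.413, 0.729 and 0.585. The spliced exons thus had 0.578, 0.553 and 0.542 times the density of single-exon ones, a mean log2 ratio of -0.84 ± 0.05 (SD, n = 3), below 0 in 3 of 3 libraries. Without the small structured RNA stretches and Gm72623 the ratio was closer to 1, at 0.703, 0.805 and 0.657, a mean log2 ratio of -0.48 ± 0.15. The single-exon class was small, with 1175, 2072 and 1663 crosslinks, and at least 1 exon crosslink was found in 32.4% of its genes against 28.4% of spliced genes.

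Within spliced genes density rose with the number of exons. Genes were classed by their transcript with the most exons. After scaling to depth, genes with 2 exons had 0.450 ± 0.011 CPM per kb (SD, n = 3), those with 3 to 4 had 0.605 ± 0.016 and those with 5 or more had 0.868 ± 0.036, in the same order in every library. A crosslink was found in 18.5%, 29.6% and 51.9% of these genes. Genes with more exons also had more exonic bases. Along 5212 crosslinked canonical transcripts with at least 3 exons, internal exons had 2.25, 2.41 and 2.25 CPM per kb in replicates 1, 2 and 3 and last exons had 1.38, 1.17 and 1.45. Internal exons were thus 1.63, 2.07 and 1.55 times as dense as last exons. Against first exons, at 2.25, 1.92 and 2.36, there was no steady difference, with ratios of 1.00, 1.26 and 0.955.

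Position relative to protein-coding genes also went with density. lncRNA genes that overlap no coding gene and lie neither within 5 kb downstream nor divergently within 1 kb of one numbered 17697 and had 0.575 ± 0.031 CPM per kb (SD, n = 3). Those antisense to a coding gene had 0.807 ± 0.033, those divergent from one 0.766 ± 0.024, those within 5 kb downstream on its strand 0.836 ± 0.032, and those overlapping a coding gene on the same strand 0.974 ± 0.051. Gm72623 is of the last class, which without it had 0.793 ± 0.047 and no longer stood above the downstream class in any library. Each of these classes, also without Gm72623, lay above the genes apart from coding genes in all 3 libraries. In the sense class, exonic lncRNA bases within an intron of the coding gene may receive contacts with the coding pre-mRNA, and this was not tested.

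On the X chromosome, which is known to be silenced during male meiosis, lncRNA exons had 0.730, 0.283 and 1.02 times the autosomal density in replicates 1, 2 and 3. Without 4930570D08Rik these ratios were 0.470, 0.259 and 0.748. X-linked lncRNA introns had 0.182, 0.219 and 0.222 times the autosomal lncRNA intron density. X-linked coding exons had 0.405, 0.343 and 0.378 times the autosomal coding density. The X held only 199, 132 and 369 lncRNA exon crosslinks, and a crosslink was found in 125 of its 735 genes.

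Lists of well-known lncRNAs held 50 members, of which 82% had an exon crosslink and 18% had 20 or more, beside 28.7% and 1.48% of all lncRNA genes. Exon lengths were not matched in these shares. The median was 982 nt over all lncRNA genes, and most listed genes were longer. Rian, with 31981 nt, had an exon crosslink but only 0.125 crosslinks per kb, summed over the libraries. Of 14 imprinted or dosage-compensation RNAs listed, 13 were members, 9 had an exon crosslink and only Kcnq1ot1 had 20 or more. Meg3, an imprinted RNA, held 1, 11 and 2. Xist, Tsix, H19 and Airn held no exon crosslink in any library. Xist coats the inactive X of female cells, and here its level lay below the limits given above for a count of 0.

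Among 24 host genes of snoRNAs and microRNAs, 22 had an exon crosslink and 5 had 20 or more. Dleu2, host of the miR-15a and miR-16-1 hairpins, held 18, 24 and 24 and was called with higher exon density at a log2 ratio of 1.36 ± 0.16 (SD, n = 3; largest adjusted p = 0.0213, exact binomial test). Mir17hg held 4, 14 and 17. The snoRNA hosts Gas5 (10, 17 and 5), Snhg1 (2, 17 and 2) and Zfas1 (2, 18 and 0) had 53.1%, 76.2% and 100% of their exon crosslinks in stretches that match annotated snoRNAs. After scaling to depth, Snhg1 and Zfas1 were highest in replicate 2 and Gas5 in replicate 1.

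Of 15 other familiar RNAs, 13 were members, 10 had an exon crosslink and 3 had 20 or more. Sox2ot, which overlaps Sox2, held 11, 17 and 14 and was called at 1.89 ± 0.66 (SD, n = 3; largest adjusted p = 0.0213, exact binomial test). Oip5os1 held 13, 7 and 15 and Crnde 7, 10 and 7, and neither was called. Norad, an abundant cytoplasmic RNA that binds Pumilio proteins, held 1, 0 and 1. Over the 3 lists, 12 genes could be tested and 3 were called, beside 5.42% of all lncRNA genes tested. Tug1 and Tsx are protein-coding genes in the annotation used and were not members, and Nespas was not matched.

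The libraries agreed in part on which lncRNAs were contacted. Spearman's rho of exon crosslinks across the 9447 genes with at least 1 was 0.327 between replicates 1 and 2, 0.365 between 1 and 3 and 0.299 between 2 and 3. Across 14319 protein-coding genes it was 0.726, 0.817 and 0.725. These are correlations across genes, which share library and depth and are not independent replicates. Of the 9447 lncRNA genes, 5513 had 1 to 2 crosslinks. Across the 486 lncRNA genes with 20 or more crosslinks rho was 0.298, 0.629 and 0.165 for the same pairs. Across 4352 protein-coding genes with 20 or more it was 0.548, 0.814 and 0.442. Replicates 1 and 3 were therefore the closest pair and replicate 2 stood apart.

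**Figure D4:**
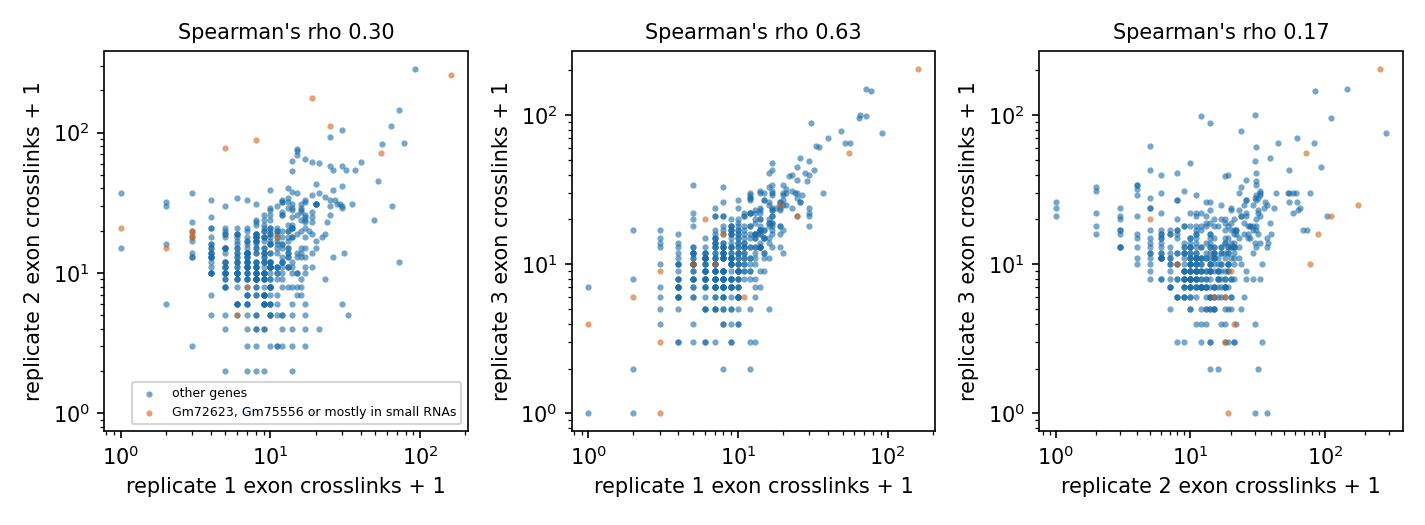
Exon crosslinks plus 1 (log axes) in each pair of libraries for the 486 lncRNA genes with 20 or more exon crosslinks in all, with Spearman's rho above each panel. Genes with more than 50% of their crosslinks in a small structured RNA, Gm72623 and Gm75556 are orange; points with replicate 2 far above or far below the others make the first and last panels wider than the middle one.

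Among those 486 genes, 34 had more than 2 times the CPM of both other libraries in replicate 2, and 81 had less than 50% of both. The highest library exceeded the lowest by a median of 2.08 times. The widest gaps upward were Gm64157, with 0, 36 and 0 crosslinks, Gm14236, with 1, 29 and 0, and Gm36170, with 1, 31 and 1. The widest downward were ENSMUSG00000144275, with 18, 0 and 23, Gm49048, with 7, 0 and 25, and Gm20153, with 6, 0 and 20. These 6 genes were chosen after their values were seen.

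At single nucleotides the overlap was small. Of 12462, 20690 and 16512 crosslinked positions in lncRNA exons of replicates 1, 2 and 3, only 66 were found in all libraries, or 0.530%, 0.319% and 0.400% of each. Of those 66, 33 lay in Gm72623, and 55 lay in Gm72623, Gm75556 or genes with more than 50% of their crosslinks in a small structured RNA. Elsewhere in the members 11 nucleotides were hit in every library. Replicates 1 and 3 shared 313 positions, which were 2.51% of replicate 1 and 1.90% of replicate 3.

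GAA, the core of the known Tra2β site, was counted around the crosslinks. For every crosslink, pentamers centred within 30 nt on exonic bases of the same gene were counted and divided by the number predicted from all exonic bases of that gene. The 48 pentamers that contain GAA were 1.23, 1.50 and 1.21 times as frequent as predicted in replicates 1, 2 and 3, a mean of 1.32 ± 0.160 (SD, n = 3). In exons of protein-coding genes this ratio was 1.40, 1.67 and 1.38, higher than in lncRNA exons in each library. In lncRNA introns it was 1.12, 1.71 and 1.13. Spliced lncRNA exons had a mean of 1.33 ± 0.160 and single-exon lncRNAs 1.16 ± 0.158, lower in each library. The single-exon value includes Gm72623, whose densest window has no GAA, and the small structured RNA stretches. Whether it stays lower without them was not tested. Every one of these library values exceeded 1, and replicate 2 gave the highest in each class.

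The 5 pentamers with the highest mean ratio in lncRNA exons were GAAGA at 2.01 ± 0.391, AGAAG at 1.87 ± 0.344, AAGAA at 1.87 ± 0.380, ATCGA at 1.60 ± 0.0870 and CGAAG at 1.50 ± 0.327 (SD, n = 3). In exons of protein-coding genes the same leading 3 pentamers ranked 1, 2 and 3. ATCGA, which stands in the window of Gm72623 printed above, fell to a ratio of 1.22 and rank 40 when Gm72623 and the small structured stretches were left out. Of the 20 highest pentamers 11 contained GAA and 13 were made of purines alone.

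**Figure D5:**
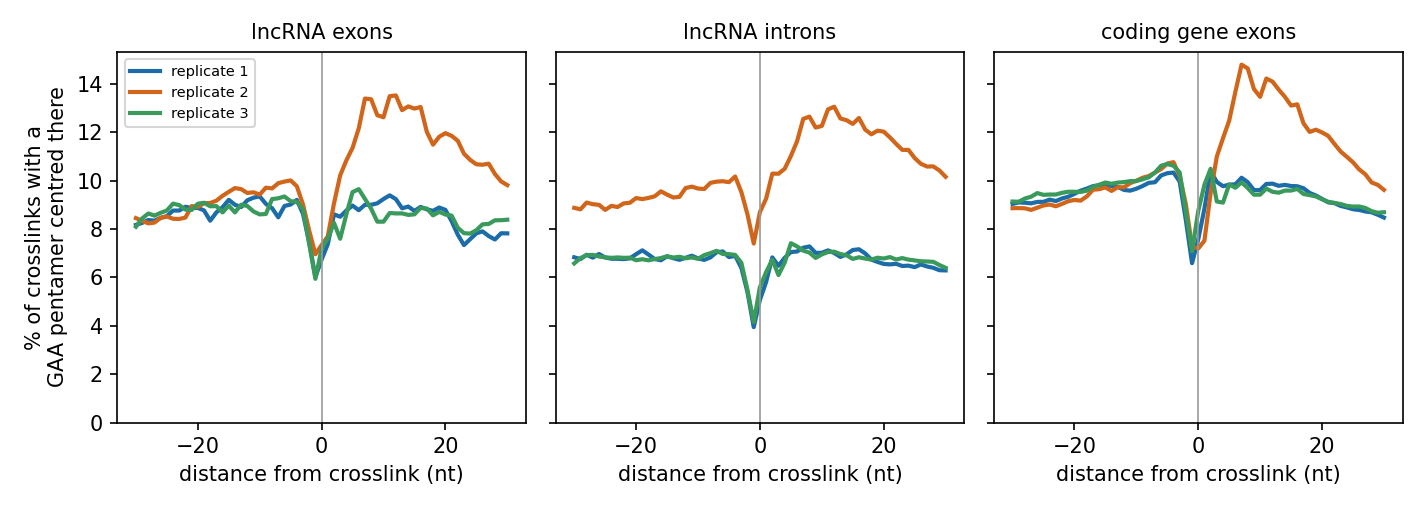
Percentage of crosslinks with a GAA-containing pentamer centred at each distance from the crosslink (nt, negative is upstream), for lncRNA exons, lncRNA introns and coding gene exons in the 3 replicates. All 9 lines dip at the crosslink, where only a crosslinked A or G can centre a pentamer with GAA. In lncRNA exons replicate 2 rises to 13.5% at 12 nt downstream, while replicates 1 and 3 stay under 10%.

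Around crosslinks in lncRNA exons, replicates 1 and 3 had a GAA pentamer at 6.74% and 7.19% of crosslinked nucleotides themselves, with peaks of 9.39% and 9.64% downstream. Replicate 2 had 7.34% at the crosslink and 13.5% at 12 nt downstream. Its mean over the 30 nt downstream was 11.6%, against 9.01% upstream, where replicates 1 and 3 showed 8.47% and 8.48% downstream against 8.65% and 8.71% upstream. The crosslinked base was a T in 45.0%, 33.6% and 44.3% of crosslinks, against 25.2%, 25.1% and 25.2% of the exonic bases of the same genes. A preference for uridine is known for ultraviolet crosslinking, and the T share was lowest in replicate 2. Another 13.4%, 15.4% and 15.1% of crosslinks were at a C. Every pentamer that contains GAA has A or G at its centre, so a crosslink at T or C can hold none. The low GAA share at the crosslink thus follows in part from the crosslinked base, and whether it goes beyond this was not tested.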

How the data were processed

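Each iCLIP replicate had been processed by the authors with the iMAPS pipeline, and the deposited files list, per the file headers and labels, whole-number counts of unique cDNAs at single crosslinked nucleotides of mm39, by strand, not normalised and not pooled. The submitters' processing notes name Trim Galore 0.6.7, Bowtie 1.3.1, STAR 2.7.9a and UMI-tools 1.1.2. Depth was 348033, 619571 and 488719 crosslinks, so small counts carry most of the error. Counts were summed by strand over GENCODE vM39 exons of all transcripts with Python 3.11.15, NumPy 2.4.6, pandas 2.3.3 and SciPy 1.17.1. A crosslink in bases shared by 2 lncRNA genes counted for each, which added 0.319%. Log2 ratios per gene had 0.5 crosslinks added to exon and intron counts. Genes tested had at least 50 nt of exon and of intron. The exact binomial test was run on simulated binomial counts, drawn as the test itself assumes. How it behaves where crosslinks cluster was not tested. Small structured RNA stretches were matches of at least 50 nt at 85% identity by blastn 2.17.0.

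Genes named are the 20 with the highest mean CPM and at least 3 crosslinks in each library, the 10 densest, the 5 called genes with the largest and the called genes with the lowest exon to intron ratio, those of 3 lists with at least 20 exon crosslinks, and the 5 highest pentamers, with exceptions stated. Members, lists and tests were chosen with earlier results of these data known. p-values measure the spread of counts within libraries. No sequence from chromosome 18 is printed. Alternatives counted each nucleotide once, left out other annotated exons, coding gene bodies, the leading gene or each replicate, used canonical transcripts, other minimums and windows, and, chosen after seeing the data, left out small structured RNAs.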

Additional observations from a re-analysis of the deposited data

How the results depend on the processing

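Over 8 results and 82 alternatives, none of the log2 ratios changed sign and 62 values were classed as near that reported. That class was wide. It held 121 calls of higher exon density without exons of other non-coding genes and 176 without replicate 3, beside 138. It also held log2 ratios of lncRNA over coding exon density of -2.10 without replicate 2 and -1.40 without replicate 3, beside -1.72. The share of crosslinks in lncRNA exons, 3.54%, was 3.32% without exons of other non-coding genes, 3.37% without coding gene bodies and 1.91% with canonical transcripts only. The log2 ratio of spliced over single-exon density, -0.84, was -0.63 with each nucleotide counted once, -0.68 without exons of other non-coding genes, -0.60 without coding gene bodies, -1.03 with canonical transcripts only, -0.65 without the leading gene and -0.48 without small structured RNAs and Gm72623-like sequence. Calls of higher exon density, 138, were 64 with canonical transcripts only and 361 when 2 of 3 libraries were enough, and leaving out a replicate gave 176 to 245. Of the 138, 136 remained called without small structured RNAs. Calls of higher intron density, 2, were 1 with each nucleotide counted once and 1 with canonical transcripts only, and 4 with 2 of 3 libraries. Mean rho between libraries, 0.330, was 0.129 with canonical transcripts only and 0.370 over genes with at least 3 crosslinks, Pearson's r of log2 crosslinks was 0.548, and leaving out a replicate gave 0.299 to 0.365. The cause of these changes was not tested, except that fewer bases or fewer required libraries follow from the settings themselves. The alternative without the annotated ribosomal RNA copies Rn18s-rs5, Gm42418, Gm26917 and AY036118 was not run, because none of them is a lncRNA gene of the annotation. Gm72623 and the part of Gm75556 that matches it were left out together with the small structured RNAs. No paired analysis was possible because the libraries analysed here form 1 group. Of the 32882 genes, 23435 had no exon crosslink and 5513 had 1 to 2.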
